A study of Homo sapiens with 6 samples.

Results

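Genes named ZNF followed by a number encode mostly C2H2 zinc finger proteins, the largest class of human transcription factors, and their expression was compared between H9 cells treated with DMSO and H9 cells treated with AZD4573, a selective inhibitor of CDK9. A gene was taken as an expressed ZNF gene if its symbol was ZNF, a number and at most 1 further letter, and if its mean over the 3 DMSO libraries was at least 5 CPM (the gene's counts over the library total, scaled to parts per 1000000). This rule gave 297 members among 559 ZNF genes and 61541 genes in all. H9 is an established human T-cell lymphoma line, labelled wild type, and is the only line in these samples. The 3 AZD4573 libraries came from cells exposed to 50 nM for 4 h, and the 3 control libraries from cells given DMSO, the solvent. The labels give no exposure time for DMSO and do not say whether the libraries of a group came from separate cultures, so the p-values measure the spread between these libraries, which may be technical. The members were chosen by their DMSO level, so that level itself is a description, and a gene that the chance error of the DMSO libraries lifted over the threshold is more readily seen to fall.

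A C2H2 zinc finger is a small fold in which a pair of cysteines and a pair of histidines hold a zinc ion, and an array of such fingers reads DNA a few bases at a time. Many ZNF proteins carry a KRAB box in front of the fingers, which binds TRIM28 (KAP1) and through it the histone methyltransferase SETDB1, HP1 proteins and histone deacetylases, so that the bound locus is packed into heterochromatin. The KRAB family has expanded by tandem duplication, much of it on chromosome 19, and many members bind transposable elements, whereas other ZNF proteins activate transcription, bind RNA or work in splicing, ribosome biogenesis and mitosis. CDK9 is the kinase of P-TEFb, which releases paused RNA polymerase II (RNAP2) into elongation.

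Promoters of the members are shown first, because some short motifs, which the rule did not use, are more frequent there than in promoters of expressed genes. Of the 297 members, 256 were found in a table of RefSeq promoter windows (GRCh38.p14, 250 bases before to 50 after the start). The 4 examples below are the 250 bases before the start of a pair of members that fell far upon AZD4573 treatment (ZNF248 and ZNF324B) and a pair that rose (ZNF264 and ZNF605), with capitals marking CCAAT and CCGGAAG, the core bound by ETS factors, on either strand. They are not typical of the strongly changed members. The same 250 bases of ZNF45, ZNF484 and ZNF341, which fell, and of ZNF507 and ZNF121, which rose, hold neither motif. Among the largest falls only ZNF324B holds CCGGAAG there. ZNF248 lies at chr10:37858104-37858353 on the minus strand, ZNF324B at chr19:58451372-58451621 on the plus strand, ZNF264 at chr19:57191250-57191499 on the plus strand and ZNF605 at chr12:132956307-132956556 on the minus strand.
ZNF248: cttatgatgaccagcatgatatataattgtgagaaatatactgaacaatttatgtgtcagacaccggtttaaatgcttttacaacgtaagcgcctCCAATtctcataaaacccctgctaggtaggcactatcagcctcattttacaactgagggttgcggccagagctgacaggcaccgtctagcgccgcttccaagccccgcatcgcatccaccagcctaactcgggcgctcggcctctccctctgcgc
ZNF324B: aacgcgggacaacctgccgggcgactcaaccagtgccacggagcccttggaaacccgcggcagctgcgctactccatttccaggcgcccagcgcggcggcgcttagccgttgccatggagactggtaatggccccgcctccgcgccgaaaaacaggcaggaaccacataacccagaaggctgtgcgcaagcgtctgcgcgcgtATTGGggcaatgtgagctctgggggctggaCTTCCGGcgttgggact
ZNF264: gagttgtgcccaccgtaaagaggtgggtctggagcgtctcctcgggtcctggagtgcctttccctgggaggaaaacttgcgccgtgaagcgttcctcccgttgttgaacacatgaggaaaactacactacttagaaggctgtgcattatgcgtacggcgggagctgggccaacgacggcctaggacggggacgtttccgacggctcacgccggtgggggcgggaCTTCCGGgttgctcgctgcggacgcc
ZNF605: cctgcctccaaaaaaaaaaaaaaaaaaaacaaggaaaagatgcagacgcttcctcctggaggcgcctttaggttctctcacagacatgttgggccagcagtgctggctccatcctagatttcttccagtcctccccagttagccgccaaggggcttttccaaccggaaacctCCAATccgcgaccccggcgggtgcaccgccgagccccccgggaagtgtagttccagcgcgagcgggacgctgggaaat

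CCGGAAG was found in 44.5% of the 256 member windows, compared with 10.3% of all 35116 windows in the table and 22.4% of the 8364 windows of tested genes with at least 5 CPM in DMSO. CCAAT stood in 46.9% of the member windows and in 38.0% of those of the expressed genes. Conversely, GGGCGG, the letters bound by SP factors, stood in 61.3% of member windows and in 71.3% of those of expressed genes. The TATA letters TATAAA were found in 3.91% of member windows and 5% of those of expressed genes, and the E-box CACGTG in 5.86% and 10.8%. All 5 motifs were searched on both strands, none lies within another, and a match is a description of the letters and not a bound site.

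CCGGAAG and CCAAT were found both in members called lower and in members called higher, at differing shares. CCGGAAG was found in 36.7% of the windows of members called lower, in 52% of those called higher and in 50.0% of those not called. CCAAT was found in 45%, 60.0% and 45.9% of these windows, and the higher group held only 25 windows. Members with a KRAB box held CCGGAAG more often (50.3%) than those without (35.1%), and CCAAT likewise (54.1% and 35.1%). These shares were not tested against each other.

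The libraries held 70367303 to 76571157 counts in DMSO and 52101868 to 63795185 in AZD4573. Every member was detected in each of the 6 libraries, the smallest count being 69, and all 297 passed the filter on low counts. The T-cell markers CD3D, CD3E, CD247, TRAC and LCK were expressed, and 10 of 12 T-cell markers exceeded 1 CPM, whereas CD2 (0.109 CPM in DMSO) and CD7 (0.624 CPM) were low. The summed T-cell markers were 1503 to 1552 CPM in DMSO and 1908 to 1920.4 CPM in AZD4573. Among B-cell markers, CD79A was present (59.9 CPM in DMSO and 90.2 CPM in AZD4573) while MS4A1 was below 1 CPM, and EPCAM was present (161 and 129.7 CPM) while KRT14 was at 0. Of 3 markers of the stem cell line also called H9, NANOG was at 0, where 0 counts allow at most 0.0576 CPM in the shallowest library, LIN28A was at 0.0134 CPM in DMSO and 0.0879 CPM in AZD4573, and POU5F1 was at 1.31 and 1.92 CPM. The mitochondrially encoded mRNAs took 3.13% ± 0.0929 of the counts in DMSO and 4.85% ± 0.162 in AZD4573 (SD, n = 3). The part of these shifts in the results below was not tested, and in bulk RNA fewer cells of a type and less RNA per cell cannot be told apart.

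The question addressed was which ZNF transcripts depend on CDK9 activity over the exposure. As a group the members were lower in AZD4573. Together they took 0.914% ± 0.0211 of all counts in DMSO and 0.713% ± 0.0101 in AZD4573 (SD, n = 3). The 3 DMSO libraries (0.890%, 0.931% and 0.920%) lay above the 3 AZD4573 libraries (0.712%, 0.724% and 0.704%) with no overlap. The rule used these DMSO values, which favours a fall, so the shares are a description only. All genes tested at the same DMSO minimum also had a median log2 fold change below 0 (-0.18, AZD4573 against DMSO). The median member level was 18.2 CPM in DMSO and 13.8 CPM in AZD4573. In DMSO 297 members were at or above 5 CPM by the rule, and 247 of them were still there in AZD4573. By the rule this count could not rise, so it is no measure of a fall. A further 12 ZNF genes outside the members were at or above 5 CPM in AZD4573, which made 259. Of all genes tested, 10502 were at that level in DMSO and 10316 in AZD4573.

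**Figure D1:**
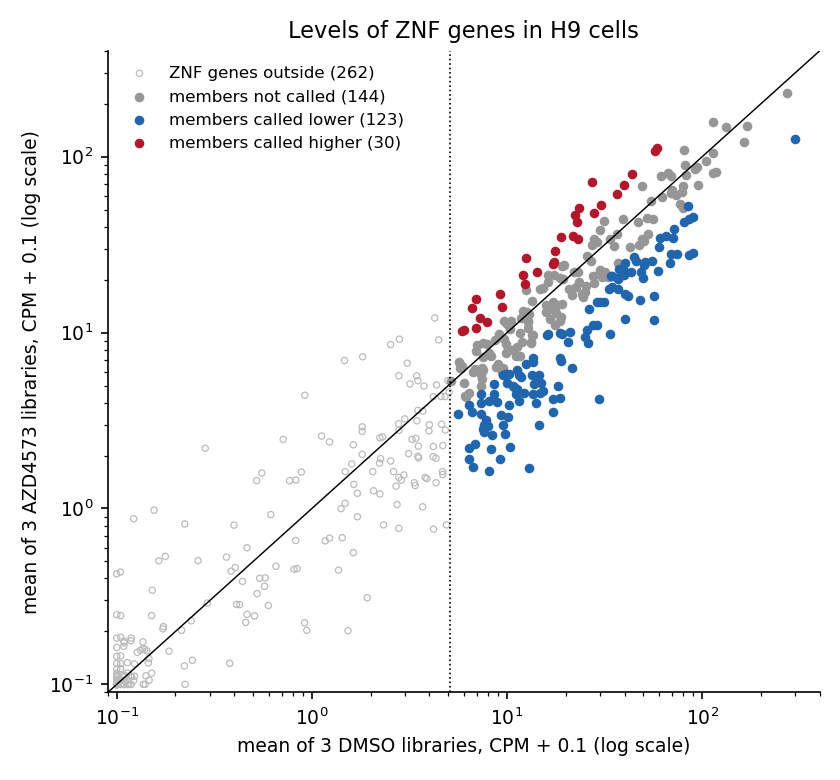
Mean CPM plus 0.1 of each ZNF gene in the 3 AZD4573 libraries (y axis) against the 3 DMSO libraries (x axis), both on log scales, with the line of equality and a dotted line at the threshold of 5 CPM. The 123 members called lower (blue) lie below the line, at low and high levels alike, and the 30 called higher (red) lie above it.

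Calls were made by edgeR's quasi-likelihood test, at a Benjamini-Hochberg adjusted p under 0.05 and a change of 1.5-fold or more. In this comparison 123 of 297 members (41.4%) were lower in AZD4573, 30 (10.1%) were higher and 144 were not called. In the same fit 23.7% of all 17678 genes tested were called lower and 22.7% higher. Among the 10502 genes tested with at least 5 CPM in DMSO, which share the members' threshold, 29.8% were called lower and 10.5% higher. The members' share of lower calls thus stood above both backgrounds, and their share of higher calls lay at that of genes expressed at the same minimum. The 2 groups of libraries did not overlap, with AZD4573 below DMSO, for 200 members (67.3%, against 42.9% of all genes tested and 58.5% of those at 5 CPM) and with AZD4573 above DMSO for 55 members (18.5%, against 34.2% and 28.0%). At an adjusted p under 0.05 with any fold, 185 members (62.3%) were lower, against 37.4% of all genes tested and 51.9% of those at 5 CPM, and 66 (22.2%) were higher, against 37.3% and 32.7%.

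Log2 fold changes below are AZD4573 against DMSO after scaling by TMM. Their standard error (SE) was worked back from the fold change and the F statistic of the quasi-likelihood test. The median of the members was -0.41, compared with 0.03 for all genes tested and -0.18 for genes at 5 CPM or more. Members ranged from -2.90 for ZNF248 to 1.51 for ZNF580, and 69 (23.2%) had a value at least 2-fold lower, against 14.2% of all genes tested and 15.8% of those at 5 CPM. The shares with larger falls and with rises lay near that of genes at 5 CPM. At least 4-fold lower were 9 members (3.03%, against 2.90% and 2.24%), and at least 2-fold higher were 8 (2.69%, against 15.4% and 3.09%). The scaling sets where 0 lies. Scaled to the 13 mitochondrially encoded mRNAs, the median of all genes became -0.71 and that of the members -1.15, with 227 members called lower and 1 higher. A scaling moves all genes alike, and the median of the members differed by -0.44 from that of all genes tested and by -0.24 from that of genes at 5 CPM or more. When the members were instead chosen by their mean over all 6 libraries, 116 of 295 were lower and 34 higher, with a median of -0.37, where the shares of all genes at that mean were 28.0% and 12.6%. Chosen by the AZD4573 libraries, which favours rises as the DMSO rule favours falls, 77 of 259 (29.7%) were lower and 41 (15.8%) higher, with a median of -0.21, compared with 24.9% lower, 14.7% higher and a median of -0.08 among all 10316 genes chosen the same way.

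**Figure D2:**
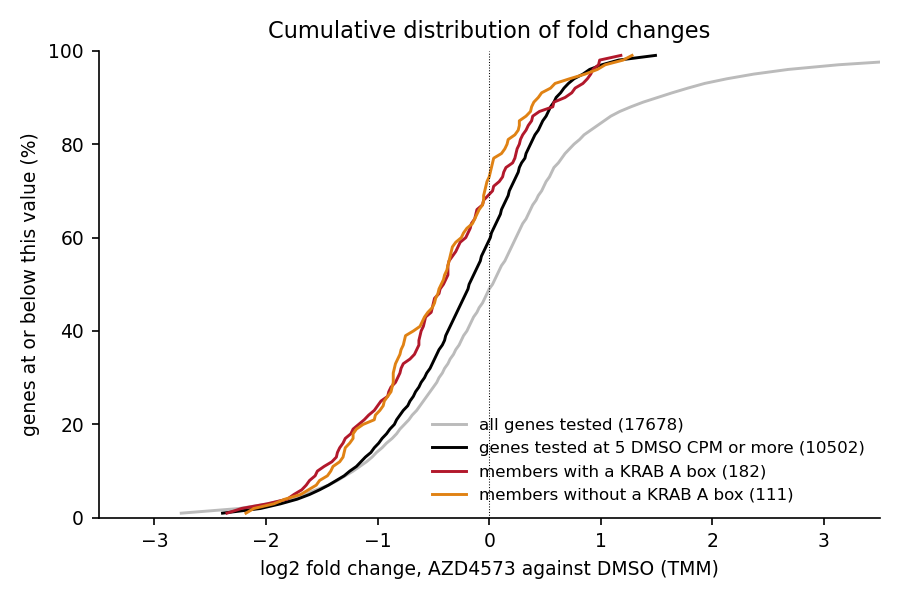
Cumulative percentage of genes (y axis, percentiles 1 to 99) at or below each log2 fold change, AZD4573 against DMSO (x axis), for all 17678 genes tested, the 10502 at 5 CPM or more in DMSO, and members with (182) and without (111) a KRAB A box. Both member curves lie to the left of the other curves over most of their range, with medians of -0.41 and -0.43, and run close to each other.

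The 4 largest falls were all seen in KRAB members. ZNF248 (chr10:37776526-37858106, minus strand), a KRAB protein with 7 fingers, was at 11.9, 13.8 and 13 CPM in DMSO and at 1.48, 1.56 and 1.77 CPM in AZD4573, a log2 fold change of -2.90 ± 0.111 (SE; edgeR adjusted p = 1.1e-10). ZNF45 (chr19:43912624-43935282, minus strand), a KRAB protein with 15 fingers, was at 28.9, 31.3 and 28.2 CPM in DMSO and at 4.66, 3.45 and 4.23 CPM in AZD4573 (-2.74 ± 0.0944, edgeR adjusted p = 5.4e-11). In both genes the treated libraries lay far below every control, which makes ZNF248 7.44-fold and ZNF45 6.68-fold lower. ZNF10, better known as KOX1 and the source of the KRAB domain used in CRISPR interference, was at 8.87, 9.14 and 9.17 CPM in DMSO and at 2.15, 1.73 and 1.52 CPM in AZD4573 (-2.23 ± 0.123, edgeR adjusted p = 2.1e-09). Its 3 treated libraries again lay under its controls, and ZNF484 behaved alike, from 7.95 ± 0.202 to 1.54 ± 0.266 CPM (SD, n = 3).

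ZNF324B fell from 16.3, 17.6 and 17.3 CPM to 3.45, 3.72 and 3.12 CPM (-2.21 ± 0.0886, edgeR adjusted p = 1.6e-10). It lies beside its paralog ZNF324, with which 13.3% of its stretches of 75 bases are shared, so a part of the reads may be split between them. ZNF322 fell from 14.5 ± 0.890 to 2.89 ± 0.299 CPM (SD, n = 3), and 24.7% of its 75-base stretches also occur in the copy ZNF322P1. Among members without KRAB, ZNF672 had the highest control level of the 8 largest falls, at 58.1, 57.9 and 53.8 CPM in DMSO and 14.2, 10.6 and 10.2 CPM in AZD4573 (-2.18 ± 0.0958, edgeR adjusted p = 3.3e-10). ZNF341, an activator of STAT3 transcription in lymphocytes, fell from 10.2 ± 1.17 to 2.14 ± 0.380 CPM (-2.16 ± 0.131, edgeR adjusted p = 5.6e-09). Part of the ZNF341 exons, 575 of 5575 bases, is also covered by exons on the opposite strand, and the counting is not stated to use strand.

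**Figure D3:**
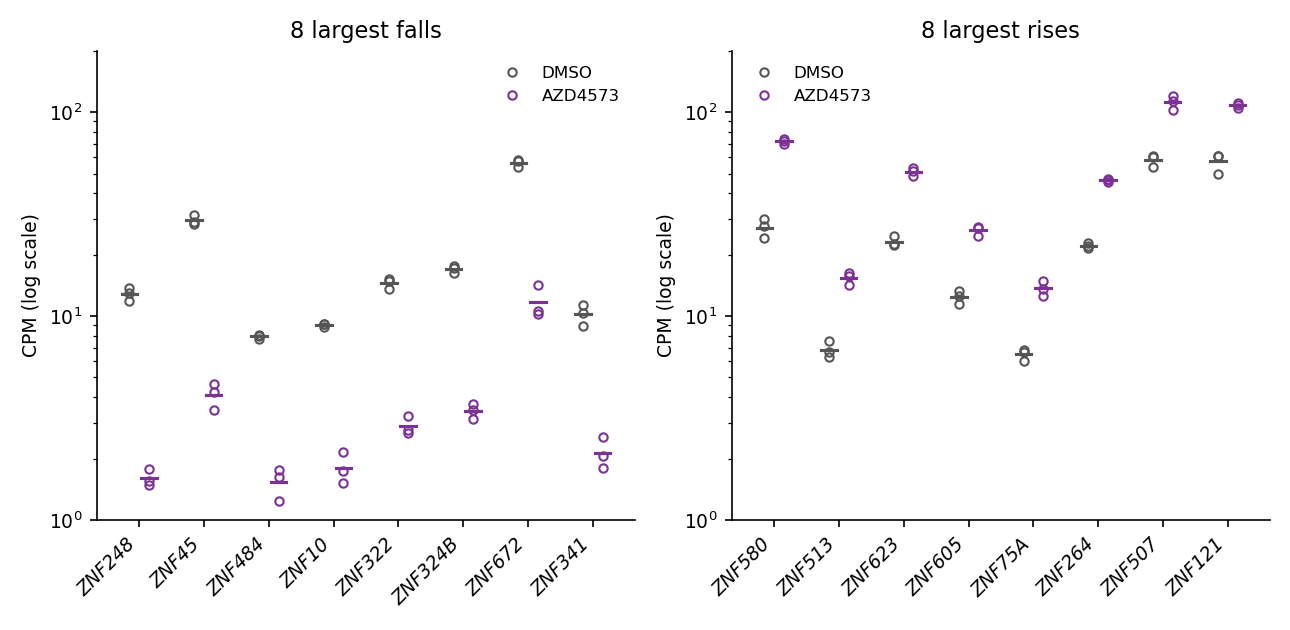
CPM in each library (open circles, log scale) and the group mean (bar) for the 8 members with the largest falls and the 8 with the largest rises. No DMSO and AZD4573 library overlaps for any of the 16 genes, as the choice of these genes required.

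Among the members the largest rises were smaller than the largest falls. The threshold in DMSO leaves out genes that start low and rise. The tested ZNF genes outside the members, many at low levels, ran from -3.68 to 7.49. ZNF580 (chr19:55635016-55643470, plus strand), a 3-finger protein without KRAB, was at 24.1, 29.9 and 27.5 CPM in DMSO and at 69.6, 73.6 and 72.4 CPM in AZD4573, a log2 fold change of 1.51 ± 0.0685 (SE; edgeR adjusted p = 4.1e-10). It shares 407 of its 2604 exon bases with neighbouring genes, among them ZNF581, which was not called at 31.3 CPM in DMSO and 43.0 CPM in AZD4573. ZNF264, a KRAB protein with 13 fingers, rose from 22.0, 22.7 and 21.6 CPM to 45.5, 46.6 and 47.0 CPM (1.18 ± 0.0529, edgeR adjusted p = 3.9e-10). ZNF623 rose from 23.2 ± 1.25 to 51.0 ± 2.23 CPM and ZNF605 from 12.4 ± 0.927 to 26.3 ± 1.41 CPM (SD, n = 3). In these genes all treated libraries were above all controls. ZNF507 and ZNF121 were the most abundant of the 8, at 58.4 ± 4.17 and 57.3 ± 6.67 CPM in DMSO and 112 ± 8.45 and 108 ± 3.12 CPM in AZD4573. ZNF513, a regulator of photoreceptor genes, and ZNF75A rose from 6.84 ± 0.658 to 15.4 ± 1.04 CPM and from 6.50 ± 0.438 to 13.7 ± 1.23 CPM, and 301 of 2370 exon bases of ZNF513 and 1064 of 8063 of ZNF75A are shared with other genes. Under the mitochondrial scaling all 8 stayed above 0, between 0.28 for ZNF121 and 0.77 for ZNF580, and only ZNF580 was still called.

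Members with and without a KRAB box had nearly the same shares of calls, and the difference was not tested. An A box of the KRAB domain was found in 182 members, of which 75 were called lower (41.2%), 20 higher (11%) and 87 not, with a median log2 fold change of -0.41. Of the 111 coding members without it, 48 were lower (43.2%), 8 higher (7.21%) and 55 not called, with a median of -0.43. A SCAN domain, a motif by which zinc finger proteins pair with each other, was found in 15 members, of which 4 fell and 1 rose. These shares (26.7% and 6.67%) were no higher than those of genes at 5 CPM or more (29.8% and 10.5%), and the median was -0.019. The 4 that fell were ZNF202 (-1.47), ZNF263 (-1.37), ZNF500 (-1.34) and ZNF215 (-1.22), and the one that rose was ZNF75A; these members and other genes of domain groups, clusters and pairs below were named after their values had been seen. The 4 members that are pseudogenes held 2 higher calls, ZNF731P (9.36 to 13.8 CPM) and ZNF767P (17.1 to 24.4 CPM), and no lower one.

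Neither the number of fingers nor the size of the gene ordered the changes. The canonical proteins held a median of 10 C2H2 fingers and at most 36, and the share called lower was 41.7% with 1 to 5 fingers, 41.8% with 6 to 10, 42.2% with 11 to 15 and 42.6% above 15. Rises were rarest with 1 to 5 fingers, at 2 of 60 members. Over 293 coding members the Spearman correlation of the log2 fold change with finger number was 0.0182 and with protein length -0.0394. Over all 297 it was 0.0964 with exonic bases, -0.0455 with gene span, -0.123 with exon number and -0.00778 with the DMSO level. These are descriptions across genes that share the same 6 libraries. In 5 coding members no finger of the classic spacing was found, among them ZNF330, a nucleolar protein also known as NOA36 (50.3 to 24.2 CPM, -0.95), and ZNF503, a NET family corepressor (17.0 to 4.09 CPM, -1.94), both called lower. Of the other three, ZNF862 (0.80) was called higher, and ZNF839 (-0.30) and ZNF720 (-0.18) were not called.

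A list of ZNF genes with described roles, a few of them KRAB repressors, was examined by gene. Of its 25 genes 22 were members, of which 9 (40.9%) were called lower, 1 (4.55%) higher and 12 neither, with a median log2 fold change of -0.37. Among all genes tested at 5 CPM or more in DMSO, 29.8% were called lower and 10.5% higher. The remaining 3 were not expressed at the minimum: ZNF91 and ZNF93, KRAB repressors of SVA and L1 retrotransposons, were at 0.305 and 0.0186 CPM in DMSO, and ZNF683 (HOBIT), a factor of tissue-resident lymphocytes, was at 0.144 CPM.

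ZNF207 (BuGZ), which binds and stabilises the spindle checkpoint protein BUB3, had the highest mean CPM of all members in DMSO, and was at 297, 299 and 294 CPM in DMSO and 137, 121 and 122 CPM in AZD4573 (-1.13 ± 0.0472, edgeR adjusted p = 2.1e-10). ZNF326, a subunit of the DBIRD complex that couples RNAP2 elongation to splicing, fell from 84.0, 93.6 and 91.7 CPM to 46.4, 45.9 and 42.6 CPM (-0.89 ± 0.0523, edgeR adjusted p = 3.8e-09). In both genes each treated library was lower than each control. ZNF830, a splicing-associated protein, fell from 42.8 ± 0.134 to 21.9 ± 2.74 CPM (-0.86 ± 0.0801, edgeR adjusted p = 3.7e-07). ZNF593, a factor of the pre-60S ribosomal subunit, had the highest level per kilobase of exons among the members, 68.0 CPM per kb in DMSO, and fell from 49.8 ± 3.27 to 20.3 ± 1.66 CPM (-1.19 ± 0.0712, edgeR adjusted p = 4.7e-09). All 732 exon bases of ZNF593 are also covered by the antisense gene ZNF593OS, so its counts cannot be told apart from that gene's where strand was not used. ZNF598, the ubiquitin ligase that marks collided ribosomes, was at 107, 119 and 112 CPM in DMSO and 105, 110.1 and 101 CPM in AZD4573, and its groups overlapped.

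ZNF143, an activator of snRNA genes and of many promoters, fell from 13.7, 13.1 and 13.6 CPM to 7.18, 7.44 and 6.55 CPM (-0.83 ± 0.0801, edgeR adjusted p = 5.3e-07). Its paralog ZNF76 was not called, at 52.3 ± 1.74 CPM in DMSO and 44.8 ± 3.15 CPM in AZD4573 (-0.12 ± 0.0550, edgeR adjusted p = 0.0592). ZNF410, which activates CHD4, fell from 45.9 ± 3.26 to 25.3 ± 0.818 CPM (-0.76 ± 0.0654, edgeR adjusted p = 1.8e-07), and CHD4 itself was at 376 ± 6.06 and 324 ± 9.78 CPM and not called. However, 92.2% of the 75-base stretches of ZNF410 belong also to an overlapping gene, ENSG00000258653, which leaves the value of ZNF410 uncertain. ZNF281, a regulator of stem cell and inflammatory genes, fell from 70.4 ± 1.68 to 34.2 ± 1.57 CPM (-0.93 ± 0.0537, edgeR adjusted p = 3.1e-09). The related ZNF148 was at 56.0 ± 3.07 and 43.9 ± 2.27 CPM (-0.25) and was not called. ZNF384, which forms fusions in B-cell leukemia, and ZNF335, a chromatin-associated factor needed for brain growth, had log2 fold changes of -0.53 and -0.38 and were not called at this fold, although their groups did not overlap.

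ZNF592 fell from 85.3 ± 3.16 to 44.1 ± 0.108 CPM (-0.85 ± 0.0458, edgeR adjusted p = 1.9e-09), while ZNF687, its partner in the complex with ZMYND8, was at 29.9 ± 2.18 CPM in DMSO and 38.3 ± 3.12 CPM in AZD4573 (0.46 ± 0.0719, edgeR adjusted p = 5.3e-05) and missed the fold of 1.5. ZNF687 was above 0 with TMM and below 0 (-0.28) with the mitochondrial scaling. ZNF274, a KRAB protein that brings SETDB1 to the 3′ ends of ZNF genes themselves, was at 19.4, 19.4 and 18.6 CPM in DMSO and 22.1, 24.9 and 24.2 CPM in AZD4573. Its treated libraries were above its controls by 0.42 ± 0.0667 on the log2 scale, which was short of a call and turned to -0.32 with the mitochondrial scaling. ZNF331, an imprinted KRAB gene, was the only gene of this list called higher under TMM, from 40.3, 44.7 and 46.1 CPM to 76.3, 84.2 and 79.4 CPM (0.98 ± 0.0588, edgeR adjusted p = 4.8e-09). ZNF638, which works with the HUSH complex on unintegrated retroviral DNA, ZNF217, an amplified oncogene in breast cancer, ZNF644, a partner of the G9a methyltransferase, and ZNF346, which binds double-stranded RNA, had log2 fold changes between -0.36 and -0.21 and were not called. ZNF451, a SUMO ligase, was at 82.3 ± 4.35 and 78.4 ± 0.502 CPM with overlapping groups.

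**Figure D4:**
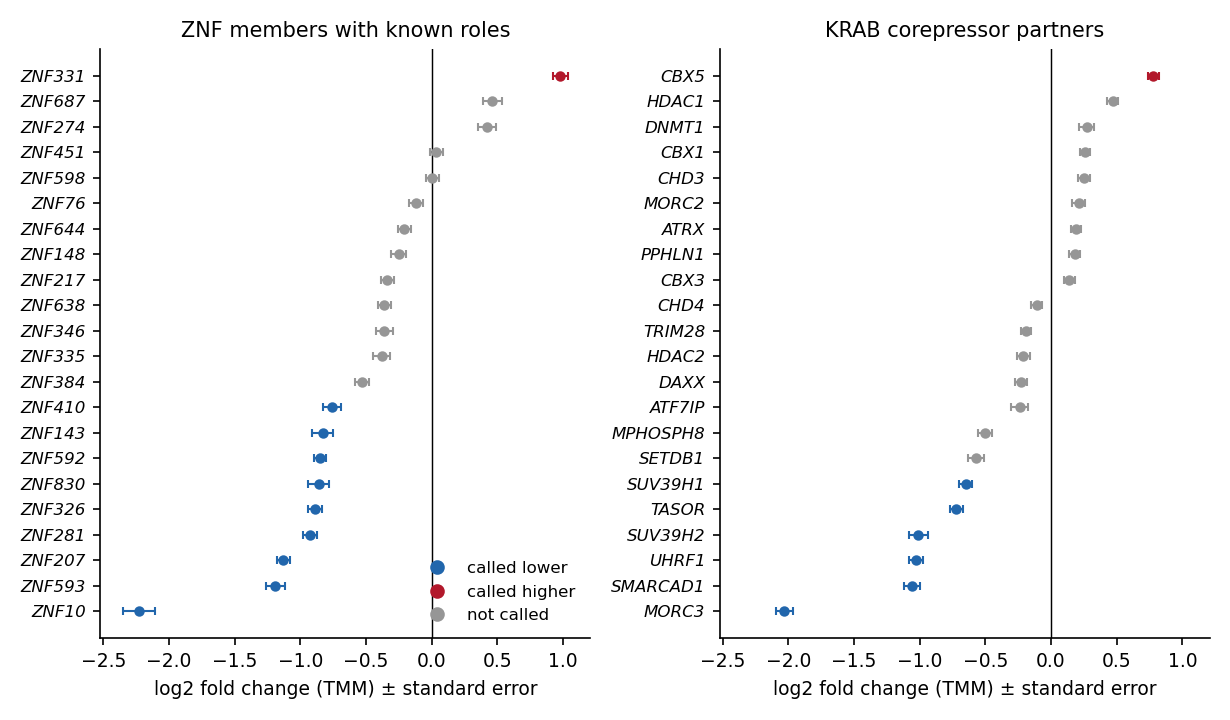
Log2 fold change, AZD4573 against DMSO (TMM), with its standard error for the 22 members with described roles (left) and the 22 partners of KRAB repression (right), coloured by call. On the left ZNF10 is lowest at -2.23 and ZNF331 highest at 0.98, and on the right MORC3 is lowest at -2.03 and CBX5 highest at 0.78.

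The partners through which KRAB proteins repress had a smaller median change than the members, a difference that was not tested. Of 22 corepressor and heterochromatin genes 6 (27.3%) were called lower, 1 (4.55%) higher and 15 neither, with a median log2 fold change of -0.20. All genes at 5 CPM or more had a near median (-0.18) and a near share of lower calls (29.8%), with 10.5% higher. TRIM28, the adaptor of the KRAB box, was at 984, 1037 and 1025 CPM in DMSO and 832, 833 and 811 CPM in AZD4573 (-0.19 ± 0.0394, edgeR adjusted p = 5.5e-04) and was not called, since the fold was under 1.5. SETDB1 was at 49.1 ± 1.93 and 30.9 ± 2.67 CPM (-0.57 ± 0.0603, edgeR adjusted p = 1.4e-06), just short of the fold. The genes that fell were MORC3 (42.5 ± 2.12 to 9.67 ± 0.438 CPM, -2.03), a nuclear body ATPase, SMARCAD1 (-1.06), a chromatin remodeler that binds TRIM28, UHRF1 (-1.03), which guides maintenance DNA methylation, the H3K9 methyltransferases SUV39H2 (-1.01) and SUV39H1 (-0.65), and TASOR (-0.72), a subunit of HUSH. CBX5, which encodes HP1α, rose from 313 ± 6.09 to 500.0 ± 7.47 CPM (0.78 ± 0.0394, edgeR adjusted p = 1.0e-09) and was at 0.04 with the mitochondrial scaling.

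The medians of the members differed by position along the genome. Chromosome 19 held 123 of the 297 members (41.4%), of which 44 (35.8%) were lower and 16 (13%) higher, with a median log2 fold change of -0.30. Of the 174 members elsewhere 79 (45.4%) were lower and 14 (8.05%) higher, with a median of -0.48. Among all genes tested at 5 CPM or more in DMSO, 29.8% were lower and 10.5% higher. When clusters were defined as at least 5 ZNF genes separated by at most 250 kb, 162 members lay in one of 21 clusters. Of these 56 (34.6%) were lower and 22 (13.6%) higher, with a median of -0.30, and of the 135 members outside clusters 67 (49.6%) were lower and 8 (5.93%) higher, with a median of -0.58. Split by domain, members with KRAB had medians of -0.37 on chromosome 19 (101 members) and -0.50 elsewhere (81). For coding members without KRAB these were -0.021 (22 members) and -0.50 (89). All genes of chromosome 19 were not set beside these values, and none of these differences was tested. Of the 13 clusters with at least 5 members 8 held calls in both directions.

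Among clusters of 5 or more members, that at chr19:43525497-44500524 had the highest share of lower calls. Of its 11 members 9 were called lower and none higher, with a median of -1.35. Among all members 41.4% were called lower, and among genes tested at 5 CPM or more in DMSO 29.8%. Besides ZNF45 (above), the fall took in ZNF230 (6.28 ± 0.175 to 1.81 ± 0.550 CPM, -1.68), ZNF576 (21.3 ± 0.267 to 6.21 ± 0.297 CPM, -1.67), ZNF235 (-1.61), ZNF225 (-1.51), ZNF226 (-1.35), ZNF155 (-1.20), ZNF227 (-0.77) and ZNF180 (-0.62). In ZNF155, 53.9% of the 75-base stretches are shared with the overlapping ZNF230-DT. The other pair did not fall with their neighbours. ZNF224, the KRAB repressor first described at the aldolase A promoter, was at 23.8, 29.5 and 30.4 CPM in DMSO and 35.2, 33.7 and 33.5 CPM in AZD4573 (0.40 ± 0.0766, edgeR adjusted p = 3.6e-04), and 47.7% of its 75-base stretches are shared with ZNF225-AS1. ZNF428, which has only 1 finger and a high level per kilobase (43.0 CPM per kb in DMSO), was at 66.8 ± 1.74 and 80.3 ± 3.97 CPM (0.37) and turned to -0.37 with the mitochondrial scaling. The cluster holds 24 ZNF genes, and those that are not members were left out for a low DMSO level. Among these, ZNF283 (-1.60), ZNF221 (-1.10) and ZNF575 (-0.93) were called lower and ZNF285B (4.04) higher.

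The largest cluster, at the end of the long arm (chr19:57191500-58481230), was mixed. Among its 30 members 9 were lower, 8 higher and 13 not called, with a median of -0.11. The cluster holds 43 ZNF genes, and the others were left out for a low DMSO level, which favours rises among them. Several of these were called higher, among them ZNF418 (2.50), ZNF547 (1.84) and ZNF814 (1.63), and ZNF772 (-1.21) was the only lower call. The first members of the cluster, ZNF264 (1.18) and ZNF805 (0.94), rose. Toward its end ZNF8 (0.97) rose from 9.08 to 16.5 CPM, and the next members, ZNF584 (-0.91), ZNF324B (-2.21) and ZNF324 (-0.97), fell. These follow each other only among the members, since ZNF132, just before ZNF324B and under the threshold in DMSO, was called higher (1.39). ZNF587B rose from 30.3 to 52.9 CPM (0.91) beside ZNF587, which was at 42.6 and 30.7 CPM (-0.37) and was not called. Among the members, ZNF256 (14.6 to 4.46 CPM, -1.61) and ZNF548 (14.4 to 5.65 CPM, -1.24) were the other falls of more than 1 on the log2 scale besides ZNF417 (-1.07). The higher calls of members in this cluster were lost with the mitochondrial scaling, as were those of all other members but ZNF580.

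**Figure D5:**
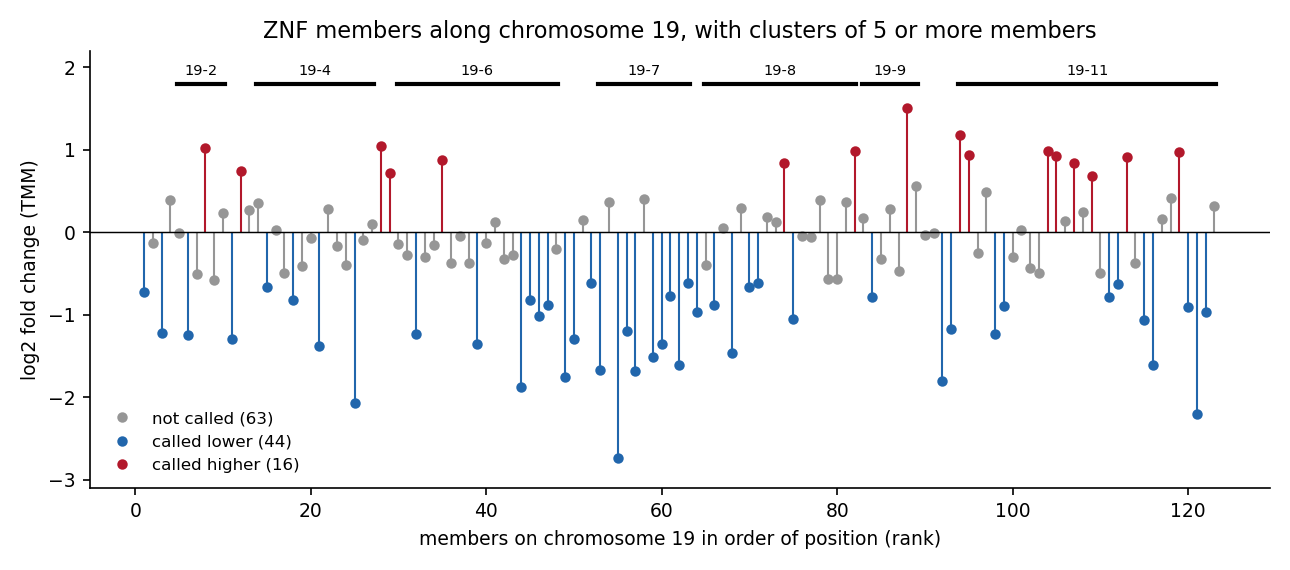
Log2 fold change (TMM) of the 123 members on chromosome 19 in the order of their position, coloured by call, with bars marking the clusters of 5 or more members, numbered along the chromosome. The cluster 19-7, with 9 of 11 members called lower, lies between mixed clusters, and 19-11 at the right holds 9 lower and 8 higher calls.

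Of the clusters on other chromosomes some held calls in both directions and others in one. On chromosome 12 (chr12:132918306-133214832) all 7 members carry KRAB, of which ZNF10 (-2.23) and ZNF26 (-0.61) fell, ZNF605 (1.19) rose and ZNF84, ZNF140, ZNF891 and ZNF268 were not called. On chromosome 7 (chr7:149069641-149867479) ZNF786 (18.2 to 4.88 CPM), ZNF212 (33.4 to 9.67 CPM), ZNF282 (89.1 to 28.2 CPM) and ZNF777 (80.7 to 42.3 CPM) fell, while ZNF862 (21.7 to 35.3 CPM) and the pseudogene ZNF767P (17.1 to 24.4 CPM) rose. On chromosome 16 (chr16:30378106-30787205) 4 of 8 members fell, ZNF689 the most (40.3 to 11.8 CPM, -1.67), and none rose. By contrast, the 6 members of the cluster on chromosome 8 held no lower call and 2 higher ones, ZNF251 (14.2 to 22.1 CPM) and ZNF250 (7.79 to 11.4 CPM).

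Members that share a number, most of them close paralogs, had unlike values in several cases. There were 9 such numbers with 19 members. ZNF33B fell from 47.8 to 15.2 CPM (-1.55) while ZNF33A went from 50.2 to 33.2 CPM (-0.50) and was not called. ZNF518A fell from 74.2 to 28.0 CPM (-1.30) while ZNF518B was at 10.0 and 7.96 CPM (-0.23). ZNF280C (-1.53) and ZNF280D (-1.02) fell and ZNF280B (-0.09) was not called, and ZNF780A (-1.29) and ZNF780B (-1.75) both fell. Whether the members of a pair differed in their change was not tested, and reads of near-identical copies may be split between them. In all, 56 members shared at least 10% of their 75-base stretches with another gene, and among the other 241 the counts were 101 lower and 22 higher, with a median of -0.43.

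Other C2H2 families were counted at the same minimum. Of 34 ZBTB genes, whose BTB domain recruits other corepressors, 11 were lower and 6 higher (median -0.26). Of 14 ZSCAN and ZKSCAN genes 9 were lower and 2 higher (median -0.72), with ZSCAN9 lowest (9.11 to 1.12 CPM, -2.94). Of 11 ZFP genes 6 were lower and none higher (median -0.75). All genes at that minimum had a median of -0.18, with 29.8% lower and 10.5% higher. The ZBTB genes lay near it in lower calls (32.4%) and above it in higher calls (17.6%). The ZSCAN and ZKSCAN genes (64.3% lower, 14.3% higher) and the ZFP genes (54.5% lower) had larger shares of lower calls. Both shares also stood above that of the ZNF members (41.4%). These families are small and were not tested against the members.

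At the threshold of the rule, ZNF530 (5.08 CPM in DMSO and 5.19 CPM in AZD4573), ZNF2 (5.49 and 3.33 CPM) and ZNF117 (5.6 and 6.74 CPM) were just inside, and ZNF700 (4.95 and 4.49 CPM), ZNF181 (4.88 and 5.23 CPM) and ZNF443 (4.79 and 0.707 CPM) were just outside. Of the 262 ZNF genes outside, 53 had no count in any library. Members in the 4 ranges of DMSO level, 5 to 10, 10 to 20, 20 to 50 and at least 50 CPM, had medians of -0.38, -0.43, -0.46 and -0.38. Among the most abundant members, ZNF146, a protein made almost wholly of fingers and second in level per kilobase (65.8 CPM per kb in DMSO), was at 272 ± 4.92 CPM in DMSO and 229.9 ± 4.57 CPM in AZD4573 (-0.14 ± 0.0397, edgeR adjusted p = 0.0059) and was not called, whereas ZNF207 (above) was called lower.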

How the data were processed

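RNA-seq of the H9 line (3 DMSO and 3 AZD4573 libraries) was analysed from 1 table of gene counts. Per the labels and the study's methods, the authors trimmed reads with cutadapt 2.3, aligned them to GRCh38 with STAR 2.7.8a and deposited RSEM 1.3.3 expected counts per gene at default settings, without normalization. The labels name poly(A) selection, while the supplemental methods describe depletion of ribosomal RNA. The deposited values were whole numbers. Of 61546 rows, 5 were reporter sequences with 0 counts.

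Counts were tested in R 4.3.3 with edgeR 4.0.16 (filterByExpr with a minimum count of 10, TMM, quasi-likelihood test, Benjamini-Hochberg over all 17678 genes tested), without a replicate block. CPM are counts over the library total, so they lack the TMM factor that log2 fold changes carry. On simulated data, 200 of 200 genes changed 2-fold were recovered and 3 of 17184 unchanged genes were called. The simulation gave every gene the same dispersion and had few changed genes, with rises and falls balanced. It checks the code and does not measure the error rate in these libraries. Alternatives were RLE and other scalings, other filters, DESeq2 1.42.0, the replicate block and leaving out each library.

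The annotation was GENCODE release 44. KRAB A boxes were found with a pyhmmer 0.12.3 profile over its translated coding transcripts (E-value at most 1e-05), fingers by the C2H2 spacing and shared sequence as stretches of 75 bases found in other genes' transcripts; these searches were settled after the counts had been seen. Named members are the 8 largest falls and 8 largest rises among members called with groups that do not overlap, those of a list of described roles, the 3 highest per kilobase and the 3 on either side of the threshold. The members and lists were chosen with earlier results of these data known. The rule also held for 1 more gene, not reported here.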

Additional observations from a re-analysis of the deposited data

Results flagged for a closer look

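Among the 262 ZNF genes that the threshold in DMSO left out, 125 were tested, of which 44 (35.2%) were called lower and 34 (27.2%) higher. The shares of all genes tested were 23.7% and 22.7%. Of the 262, 12 had a mean of at least 5 CPM in AZD4573, and 11 of these were called higher, a count that the choice of genes low in DMSO and high in AZD4573 largely fixes and that supports nothing. The values are given as a description, and 22.7% of all genes tested were called higher. ZNF516 rose from 1.37 ± 0.0511 to 6.84 ± 1.12 CPM (SD, n = 3; log2 fold change 2.42, edgeR adjusted p = 5.2e-09), ZNF425 from 1.72 ± 0.0498 to 7.19 ± 0.301 CPM (2.17) and ZNF596 from 2.43 ± 0.367 to 8.44 ± 0.274 CPM (1.90). ZNF547 (1.84) and ZNF814 (1.63) followed, both in the cluster at the end of chromosome 19. Each of these 5 rises was larger than that of ZNF580 (1.51), the largest among the members.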

How the results depend on the processing

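With library size alone the medians of all members, of those with KRAB and of those without were -0.52, -0.51 and -0.53, and with the mitochondrial scaling -1.15, -1.15 and -1.17, with 227 lower and 1 higher. Without a filter they were -0.46, -0.45 and -0.47, and with at least 10 counts in every library -0.38 for all and -0.37 with KRAB. At a fold of at least 2, 69 members were lower and 8 higher. Chosen by 6 libraries the median was -0.37, at 10 CPM or more -0.44, and by the AZD4573 libraries, a rule added after seeing the data, -0.21 with 77 lower. Of all member calls 19.6% were higher under TMM, 15.3% under library size and 0.439% under the mitochondrial scaling. DESeq2 called 122 lower and 30 higher. Leaving out 1 library gave 121 to 126 lower, 28 to 32 higher and a KRAB median from -0.44 to -0.40.

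Replicate numbers did not pair the libraries (correlations of deviations of -0.0208, 0.0417 and 0.0316), and with the replicate block 123 were lower and 30 higher.

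Of 624 values of 48 named genes under alternatives, 586 kept direction and call, 9 lost a call, 16 gained one and 13 changed sign. ZNF451 became -0.07 with library size, -0.70 with the mitochondrial scaling, -0.0064 without a filter and -0.0059 to 0.059 without 1 library. ZNF598 became -0.10, -0.73 and -0.036 under the same 3 settings and -0.035 to 0.032 without 1 library. ZNF687 (-0.28), ZNF274 (-0.32) and ZNF428 (-0.37) did so with the mitochondrial scaling only. The cause was not tested. The effect of depth on the members was not tested; the smallest count of a member was 69, which follows in part from the rule.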
